A study of Mus musculus with 6 samples.

Results

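Gdpd3 and 5 genes that lie close to it on mouse chromosome 7, Mapk3, Ypel3, Tbx6, Ppp4c and Coro1a, were followed library by library in lung RNA of TSPO WT and TSPO KO mice. These 6 genes are 6 of 23473 in the table of transcript counts. For each gene the RefSeq entry with the highest total over the 6 libraries was kept, and Gdpd3 was chosen because its level was known to differ sharply between libraries. Its values are therefore given as a description with no test, whereas the neighbours, which were chosen by position, were tested.

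The mice were labelled as C57BL/6 and were 6 to 8 weeks old, and the methods give C57BL/6J as the background of the floxed and Cre lines. TSPO KO mice lack exons 2 and 3 of Tspo, which encodes the translocator protein of the outer mitochondrial membrane, in every tissue, because floxed Tspo was removed in the male germ line by Cre under the protamine promoter. WT mice carried intact Tspo, and no treatment is given for either group. Each of the 3 libraries per genotype held lung RNA of 3 littermates pooled, so the error between libraries is that between pools, and fewer cells of a type cannot be told apart from less RNA per cell in whole lung. No source used here says whether pools of the 2 genotypes shared litters.

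The product of Gdpd3 is a membrane enzyme of the glycerophosphodiester phosphodiesterase family. It acts as a lysophospholipase D and can release lysophosphatidic acid, a signalling lipid, or N-acylethanolamines from lysophospholipids. Its neighbours do unrelated work. Mapk3 encodes ERK1, a kinase at the end of the growth factor cascade from Ras. Ypel3 encodes a small zinc-binding protein of the yippee-like family. Tbx6 encodes a T-box transcription factor of the embryonic paraxial mesoderm, Ppp4c the catalytic subunit of protein phosphatase 4, and Coro1a an actin-binding coronin of leukocytes. The corresponding stretch of human DNA is known for recurrent deletions and duplications, so the genes are often considered together.

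In the RefSeq annotation of GRCm38.p6, the assembly of mm10, Gdpd3 takes chr7:126766414-126775645 on the plus strand. Mapk3 (chr7:126759626-126765816, plus strand) ends 597 bases before it. Ypel3 (chr7:126776963-126780510, plus strand) starts 1317 bases after it, followed by Tbx6 (chr7:126781483-126785548, plus strand) and, on the minus strand, Ppp4c (chr7:126785866-126792557). Coro1a (chr7:126699774-126704816, minus strand) is farther away, with 54809 bases between it and Mapk3. The GENCODE transcript of Gdpd3 has 10 exons and 1148 bases, and 192 of its exonic bases are also exonic in Gm9967, an antisense transcript that has 0 entries in the table. No source used here gives the strand setting of the counting, so reads of Gdpd3 and Gm9967 cannot be told apart there.

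The promoters of the gene and of its nearest downstream neighbour are shown because the genes share a strand and lie 1317 bases apart. Each run covers 250 bases before to 50 bases after the RefSeq start, 5′ to 3′ on the plus strand, with CG dinucleotides, the sites of DNA methylation, in capitals.
Gdpd3, chr7:126766164-126766463: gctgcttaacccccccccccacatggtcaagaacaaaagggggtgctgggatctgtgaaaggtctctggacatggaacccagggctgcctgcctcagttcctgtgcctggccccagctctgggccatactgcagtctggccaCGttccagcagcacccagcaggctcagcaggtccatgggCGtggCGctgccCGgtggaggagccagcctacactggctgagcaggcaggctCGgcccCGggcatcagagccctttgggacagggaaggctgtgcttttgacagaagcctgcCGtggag
Ypel3, chr7:126776713-126777012: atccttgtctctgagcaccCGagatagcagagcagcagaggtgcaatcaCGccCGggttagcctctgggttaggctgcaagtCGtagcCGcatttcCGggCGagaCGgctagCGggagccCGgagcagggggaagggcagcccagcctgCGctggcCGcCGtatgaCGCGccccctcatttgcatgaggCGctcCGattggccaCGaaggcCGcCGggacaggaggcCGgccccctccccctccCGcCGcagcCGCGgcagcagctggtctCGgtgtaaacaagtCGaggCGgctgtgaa
The Gdpd3 sequence held 7 CG dinucleotides, equal to the median of 7 over 32851 mouse promoters, and 51.4% of promoters had no more than 7. The Ypel3 sequence held 28, and 87.1% of promoters had no more than that. Neither contained TATAAA (on either strand, in 13.6% of promoters) or GGGCGG (on either strand, in 35.7%). The Tbx6 promoter held 7 CG dinucleotides and a TATAAA. Promoters of Ppp4c held 22 and 36 CG dinucleotides at 2 starts, and those of Coro1a held 19 and 10. These counts describe letters only, and neither methylation nor factor binding was measured.

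The 6 libraries held 9617086 to 11942318 counts over genes, and 14802 genes had enough counts to be tested. Levels are given as CPM, the usual count rate per library, after TMM scaling, and log2 fold changes as KO minus WT. Tspo itself was at 153.6 ± 1.60 CPM in WT against 21.0 ± 1.14 CPM in KO (SD, n = 3), with a log2 fold change of −2.87 ± 0.10 (SE) and an adjusted p of 1.42e-07 in edgeR's quasi-likelihood test, and the KO libraries were low in Tspo as labelled. Library 3 of WT stood apart in ribosomal precursor RNA, with 11.4% of its counts in Rn45s against 0.224% to 0.427% in the others. Library 2 of WT stood apart in genes of other tissues: 9 squamous epithelium genes, among which 8 were found in the table, summed to 1400.1 CPM against 9.51 to 15.8 CPM, 8 skeletal muscle genes to 225.9 against 20.3 to 24.2 CPM, and 6 fat genes to 191.2 against 31.1 to 54.2 CPM. Lung epithelium and vessel genes (14 genes) summed to 50754 to 66165 CPM in the 6 libraries, so the genes that define the labelled tissue were present. No pair of libraries of the same genotype agreed within counting error.

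Gdpd3 (NM_024228) was high in 4 libraries and low in 2, and the split did not follow genotype. Its counts were 448, 36 and 27 in WT, against 460, 331 and 232 in KO. After scaling these were 40.5, 3.11 and 3.15 CPM in WT libraries 1, 2 and 3, and 42.5, 27.4 and 22.8 CPM in KO libraries 1, 2 and 3. WT library 1 thus lay inside the range of the KO libraries, while WT libraries 2 and 3 lay far below every other library. The 95% exact Poisson interval was 2.18 to 4.31 CPM in WT library 2 and 2.08 to 4.59 CPM in WT library 3, against 19.96 to 25.9 CPM in KO library 3, the lowest of the other 4. These intervals cover counting error only, not the spread between pools, and are no test of a pattern for which the gene was chosen.

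**Figure D1:**
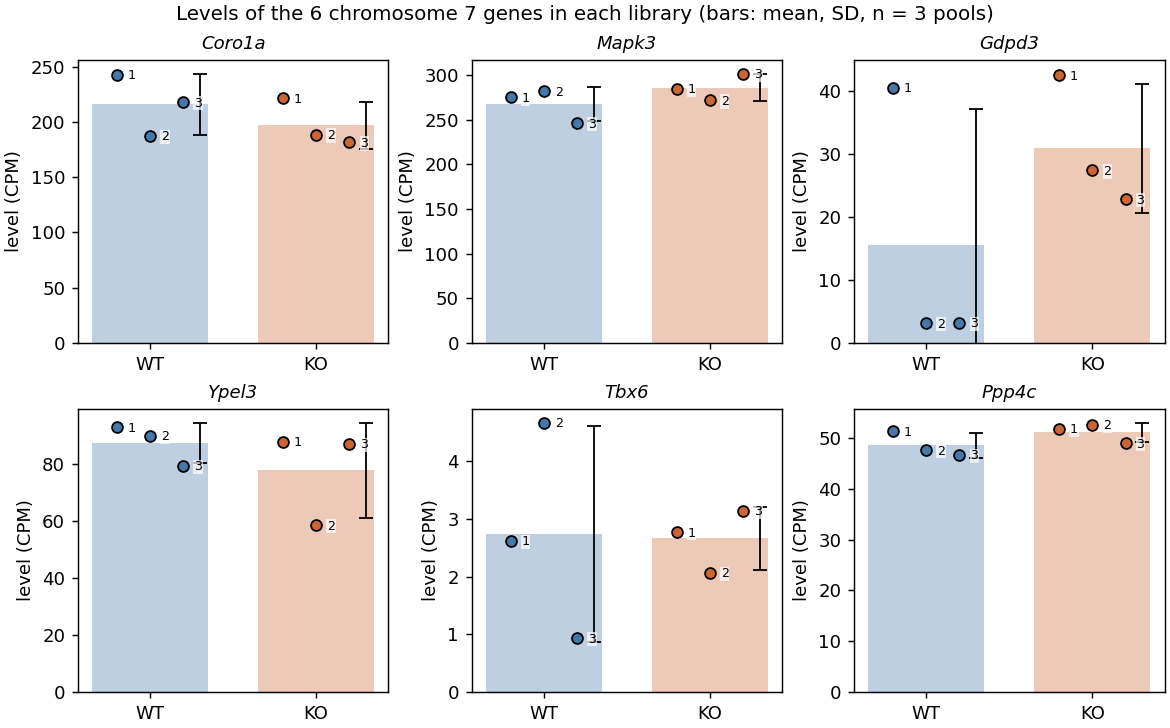
Level of each of the 6 genes in CPM (vertical axis, from 0) in the 3 WT and 3 KO libraries. Points are libraries, numbered 1 to 3, bars are means, and the black lines are ± 1 SD (for Gdpd3 in WT the line is drawn to 0, as the SD of 21.6 exceeds the mean of 15.6). Gdpd3 has 2 WT libraries near 3 CPM and 4 libraries at 22.8 CPM or more.

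WT library 1 had about 13 times the Gdpd3 level of WT library 2 and 12.8 times that of WT library 3. KO library 3, the lowest KO library, was 7.33 and 7.23 times above them. Among the KO libraries the highest was 1.86 times the lowest. The group levels of 15.6 ± 21.6 CPM in WT against 30.9 ± 10.3 CPM in KO (SD, n = 3) therefore describe no single WT library. The fitted log2 fold change of Gdpd3 was 0.96 and hung on which WT library was kept: it was 3.30 without WT library 1, 0.46 without WT library 2 and 0.52 without WT library 3. Leaving out any 1 KO library gave 0.67 to 1.14.

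The distance from the highest to the lowest library was 3.69 on the log2 scale for Gdpd3 (prior count 2), and 99.8% of tested genes had a smaller one. The median gene spanned 0.44. Within WT alone Gdpd3 spanned 3.62 (rank 18 of 14802), and within KO alone 0.89 (rank 717). Of the 6 genes, Gdpd3 and Tbx6 spanned at least 1 over the 6 libraries, as did 8.99% of tested genes, and at least 1 within WT, as did 4.35%. Among 10675 genes at 10 CPM or more, Gdpd3 was rank 10 in WT, behind genes such as Rmrp, a non-coding RNA, and Clca3, a goblet cell gene, which spanned 6.67 and 6.24. That level was not required in every library, as Gdpd3 and Rmrp fell below it in some. Of the genes ahead, Rmrp, Rn45s, Mir5109, Lars2 and Rpph1 were high in WT library 3 alone. Rptn, Pck1 and Asprv1 were high in WT library 2 alone, and Clca3 was lowest there.

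**Figure D2:**
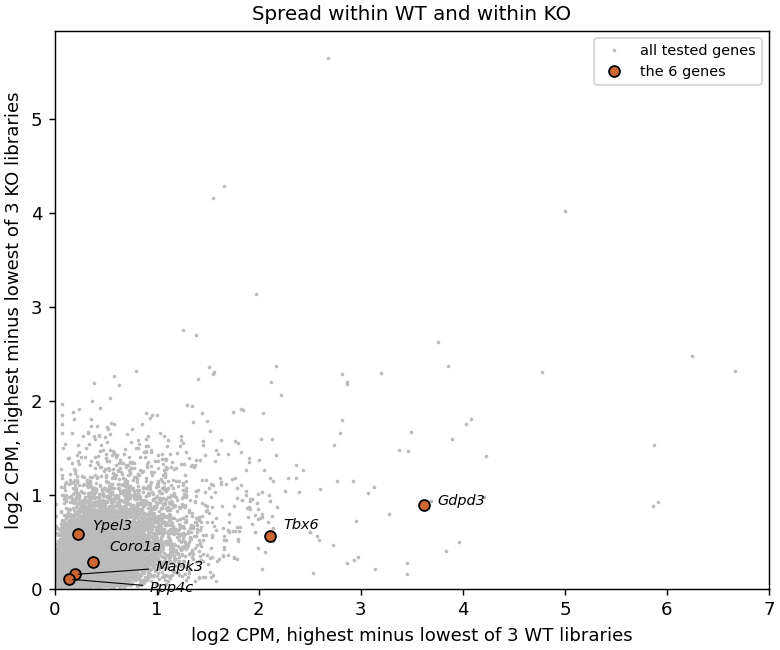
Log2 CPM of the highest minus the lowest library within WT (horizontal axis) and within KO (vertical axis), for all 14802 tested genes (grey) and the 6 genes (orange). Gdpd3 lies at 3.62 in WT and 0.89 in KO, Tbx6 at 2.11 and 0.56, and the other 4 genes lie below 0.4 in WT.

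For a gene to have WT libraries 2 and 3 below the 4 others was not rare in itself: it held for 685 genes, or 4.63% of those tested. A gap of at least 2-fold between them and the next library held for 3 genes (0.0203%), Gdpd3, Proc and Rps15a-ps6. Because Gdpd3 was chosen for this pattern, its place in that count is a description. Its gap of 2.78 on the log2 scale was the widest among the 14802 genes.

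The neighbours did not show the Gdpd3 pattern. Mapk3 (NM_011952), which ends 597 bases upstream, had 275, 282 and 246 CPM in WT and 285, 272 and 302 CPM in KO. The groups overlapped, and WT library 2, where Gdpd3 was low, had the highest Mapk3 level in WT. WT library 3, also low in Gdpd3, had the lowest Mapk3 level of the 6 libraries. Its span over 6 libraries was 0.29, and 22.1% of tested genes had a smaller one. The log2 fold change was 0.10 ± 0.10 (SE, 95% interval −0.13 to 0.33).

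The ratio of the gene to its upstream neighbour, which needs no scaling between libraries, showed the same split. Gdpd3 counts were 14.7%, 1.10% and 1.28% of Mapk3 counts in WT libraries 1 to 3, against 14.9%, 10.1% and 7.55% in KO libraries 1 to 3. The Mapk3 counts behind them were 2109 to 3287. WT library 1 and KO library 1 had nearly equal ratios.

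Ypel3 (NM_026875), which starts 1317 bases downstream, had 92.9, 90.1 and 79.5 CPM in WT and 87.9, 58.5 and 87.2 CPM in KO. The odd library here was KO library 2, and both WT libraries with little Gdpd3 had Ypel3 levels above it. A second Ypel3 entry, NM_025347, had 653 to 994 counts, close to the 680 to 1042 of the one kept, and how reads common to both were counted is not given. The log2 fold change was −0.17 ± 0.15 (SE, 95% interval −0.50 to 0.16), and it was 0.00028 without KO library 2. Gdpd3 counts were 43.5%, 3.45% and 3.97% of Ypel3 counts in WT against 48.3%, 46.8% and 26.2% in KO.

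**Figure D3:**
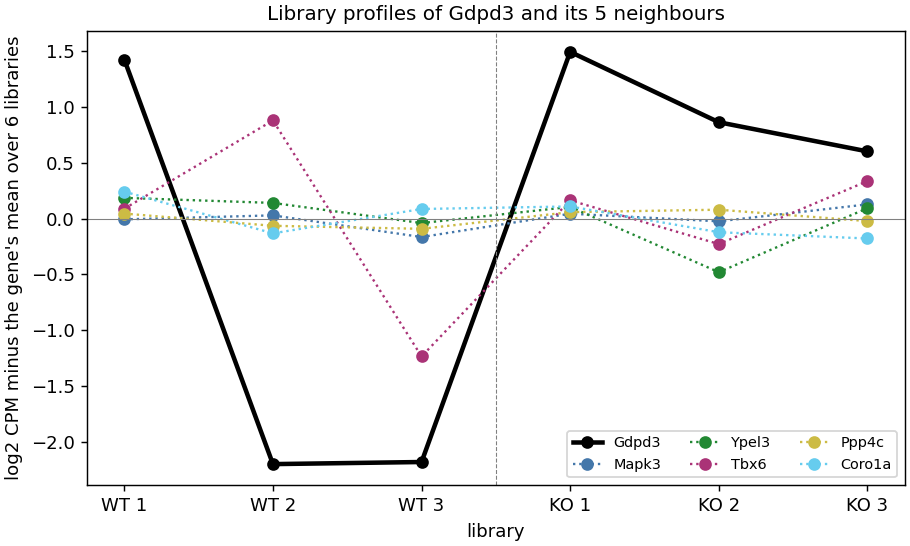
Log2 CPM of each gene minus its own mean over the 6 libraries (vertical axis) in WT libraries 1 to 3 and KO libraries 1 to 3 (horizontal axis). Points are libraries, and lines join those of 1 gene as a guide to the eye. The profile of Gdpd3 (solid black) drops in WT libraries 2 and 3, where those of Mapk3, Ypel3, Ppp4c and Coro1a stay near 0 and that of Tbx6 moves in opposite directions.

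Tbx6 (NM_011538) was the only neighbour with a wide spread, and it was also the one with few counts: 29, 54 and 8 in WT and 30, 25 and 32 in KO. These gave 2.62, 4.67 and 0.935 CPM in WT and 2.77, 2.07 and 3.14 CPM in KO. The highest and the lowest library were WT libraries 2 and 3, the pair in which Gdpd3 was low in both. Their 95% Poisson intervals, 3.51 to 6.09 CPM and 0.404 to 1.84 CPM, did not meet, while that of WT library 1 (1.75 to 3.76 CPM) met both. These intervals cover counting error only, not the spread between pools, and the 2 libraries were taken as the extremes, so this is no test. WT library 2 was the library with the muscle and squamous genes, and WT library 3 the one rich in Rn45s, and their part in the Tbx6 spread was not tested. The log2 fold change was −0.09 ± 0.43 (SE, 95% interval −1.03 to 0.84), and its sign turned without WT library 2 (0.51), without KO library 2 (0.07), in limma-voom (0.11) and with a replicate block (0.02).

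Ppp4c (NM_019674) was the steadiest of the 6 genes. It had 51.4, 47.6 and 46.7 CPM in WT and 51.9, 52.7 and 49.0 CPM in KO. WT libraries 2 and 3 were again the lowest, but they lay only 0.04 on the log2 scale below the next library, against 2.78 for Gdpd3. Its whole span was 0.17, and 4.21% of tested genes had a smaller one. The log2 fold change was 0.07 ± 0.10 (SE, 95% interval −0.14 to 0.29).

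Coro1a (NM_009898) had 243, 187 and 218 CPM in WT and 221, 189 and 182 CPM in KO. Library 1 was the highest in each group, and WT library 3 was above KO libraries 2 and 3. Its log2 fold change was −0.13 ± 0.12 (SE, 95% interval −0.41 to 0.14). The other 15 genes of a leukocyte list summed to 1676, 1491 and 1692 CPM in WT against 1691, 1493 and 1389 CPM in KO. KO library 3, WT library 2 and KO library 2 were the 3 lowest libraries, in this order, for both this sum and Coro1a, and the part of leukocytes in the Coro1a values was not tested.

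None of the 5 neighbours passed an adjusted p of 0.05 in edgeR's quasi-likelihood test (adjusted p = 0.9999 for each, unadjusted p from 0.278 for Ypel3 to 0.828 for Tbx6). Over all 14802 tested genes 0.00676% passed, which was Tspo alone, and 278 genes had an unadjusted p under 0.05. The intervals leave room for differences: the KO level could be 0.911 to 1.25 times the WT level for Mapk3, 0.707 to 1.12 times for Ypel3, 0.489 to 1.79 times for Tbx6, 0.908 to 1.22 times for Ppp4c and 0.755 to 1.10 times for Coro1a. The WT and KO libraries overlapped for all 6 genes, whereas they did not overlap for 5.46% of tested genes.

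To set the levels of the genes against each other, CPM was divided by the length of a GENCODE transcript in kb. The WT levels per kb were 149 ± 10.5 for Mapk3, 130 ± 16.7 for Coro1a, 83.3 ± 6.77 for Ypel3, 35.8 ± 1.82 for Ppp4c, 13.6 ± 18.8 for Gdpd3 and 1.59 ± 1.08 for Tbx6 (SD, n = 3). Mapk3 and Coro1a lay within the sum of their SDs in WT, as did Gdpd3 and Tbx6, so the order within these 2 pairs is not firm there. The KO levels per kb kept this order, with 159 ± 8.41 for Mapk3, 119 ± 12.8 for Coro1a, 74.1 ± 15.9 for Ypel3, 37.7 ± 1.40 for Ppp4c, 26.9 ± 8.96 for Gdpd3 and 1.54 ± 0.317 for Tbx6. Gdpd3 in WT library 1 (35.2 per kb) was close to Ppp4c in that library (37.8 per kb), but in WT library 2 it was at 2.71 per kb, the level of Tbx6 there (2.70 per kb). The scale assumes reads along the whole transcript. The design text speaks of tag profiling, whereas the methods give paired-end reads.

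As a measure of likeness, the root mean square distance between centred log2 CPM profiles over the 6 libraries was used, with 0 for equal profiles. The distances from Gdpd3 were 1.52 for Ppp4c, 1.54 for Mapk3, 1.54 for Coro1a, 1.59 for Tbx6 and 1.61 for Ypel3. A gene with the same level in every library would be at 1.58. The neighbours were thus about as far from Gdpd3 as a flat profile, and 46.0% of all tested genes were nearer than that. The profiles were centred but not scaled, so a gene with a small span lies near 1.58 whatever its order of libraries. For Mapk3, Ypel3, Ppp4c and Coro1a the distance thus speaks to the size of the change and not to the order of libraries.

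The wider stretch was then taken as all annotated genes within 500 kb of Gdpd3 on each side: 73 genes, 55 of which were in the table and 49 tested. Apart from Gdpd3, 48 genes were tested and 0 passed an adjusted p of 0.05, while 3 (6.25%) had an unadjusted p under 0.05, against 1.88% of all tested genes. Among these 3 were Atp2a1 and Mylpf, genes of skeletal muscle, whose log2 fold changes of −2.95 and −2.26 became −0.93 and 0.36 without WT library 2, the library with the muscle genes. Their log2 fold changes were above 0 for 14 genes and below 0 for 34, with a median of −0.05 against 0.00 over all tested genes. This median was small and not stable in sign, at 0.01 without WT library 2 and −0.0047 without KO library 2, and it was −0.01 with no composition scaling. The median span over 6 libraries was 0.43 for these 48 genes and 0.44 for all tested genes. WT libraries 2 and 3 were lowest for 2 of the 48, Ppp4c and Zfp553 (4.17%, against 4.63% of all tested genes).

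The genes next to the 6 did not follow Gdpd3 either. On the Coro1a side, the tested genes nearest to Gdpd3 were Bola2, Slx1b and Sult1a1, with spans of 0.80, 0.52 and 0.77. Bola2, which acts in iron-sulphur cluster delivery, had 15.7, 13.8 and 8.997 CPM in WT and 15.8, 11.4 and 12.7 CPM in KO. On the Ppp4c side lay Aldoa, the glycolytic aldolase of muscle and many other tissues, with a span of 0.27, and Fam57b with 1.09. Aldoa had 364, 396 and 327 CPM in WT and 377, 354 and 352 CPM in KO. Fam57b was lowest in WT library 3 (4.56 CPM) and KO library 2 (4.71 CPM) and highest in WT library 2 (9.94 CPM), which is not the order of Gdpd3.

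**Figure D4:**
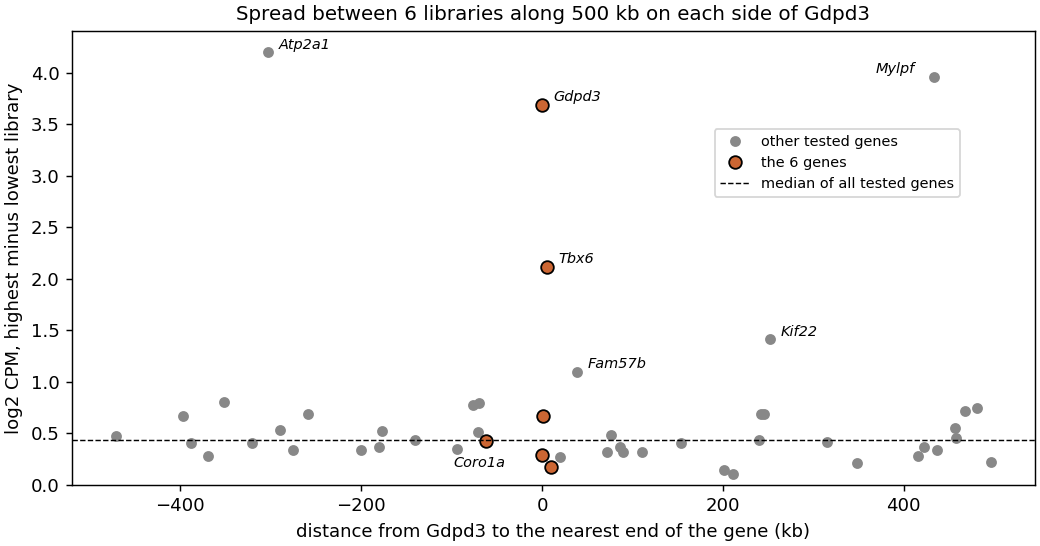
Log2 CPM of the highest minus the lowest of the 6 libraries (vertical axis) for the 49 tested genes against their distance from Gdpd3 in kb (horizontal axis, negative on the Coro1a side). Orange points are the 6 genes, grey points the others, and the dashed line is the median of all tested genes, 0.44. Only Gdpd3, Tbx6, Atp2a1, Mylpf, Kif22 and Fam57b lie above 1.

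Of the 48 genes, 5 spanned at least 1 on the log2 scale (10.4%, against 8.99% of all tested genes), namely Atp2a1, Mylpf, Tbx6, Kif22 and Fam57b. Atp2a1 and Mylpf encode the calcium pump and a myosin light chain of fast skeletal muscle. Atp2a1 was at 23.6 CPM in WT library 2 and at 1.11 to 2.80 CPM in the other 5, and Mylpf at 15.5 against 0.818 to 1.48 CPM. They were high in a library where Gdpd3 was low. The closest profile to Gdpd3 among the 48 was that of Dctpp1, at a distance of 1.36, which is not near.

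The genes with profiles nearest to that of Gdpd3 lay elsewhere in the genome. The 6 nearest among all tested genes were Rps15a-ps6 (distance 0.45), Proc (0.63), Trim34b (0.91), Fcgbp (0.99), Itgad (1.06) and Bbox1 (1.08). They are named by that distance over 6 libraries, and nothing on shared function or control follows from it. Rps15a-ps6, a ribosomal protein pseudogene on chromosome 11, had 53, 6 and 4 counts in WT against 52, 31 and 21 in KO. Like Gdpd3, it had nearly equal levels in WT library 1 and KO library 1 (4.79 and 4.80 CPM) and lower ones in KO libraries 2 and 3. A pseudogene can share reads with its parent gene and with other copies, so its values are uncertain.

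Proc encodes protein C, an anticoagulant protease made mostly in liver, and had 21, 1 and 1 counts in WT against 9, 13 and 10 in KO. Trim34b had 18, 7 and 0 counts in WT against 17, 10 and 12 in KO, and has near-identical relatives that may share its reads. Itgad, an integrin subunit of leukocytes, had 32, 17 and 5 counts in WT against 32, 33 and 14 in KO. KO library 3 (1.38 CPM) lay below WT library 2 (1.47 CPM) for Itgad, so it lacked the order of libraries seen for Gdpd3. Bbox1, an enzyme of carnitine synthesis, had 41, 10 and 11 counts in WT against 28, 32 and 14 in KO. For Bbox1, WT libraries 2 and 3 lay only 0.09 on the log2 scale below the next library. At 0 to 53 counts per library, these 5 genes have wide counting error. Trim34b, Fcgbp and Itgad are also on chromosome 7, but the nearest, Itgad, starts at 128173933, outside the stretch of 500 kb.

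**Figure D5:**
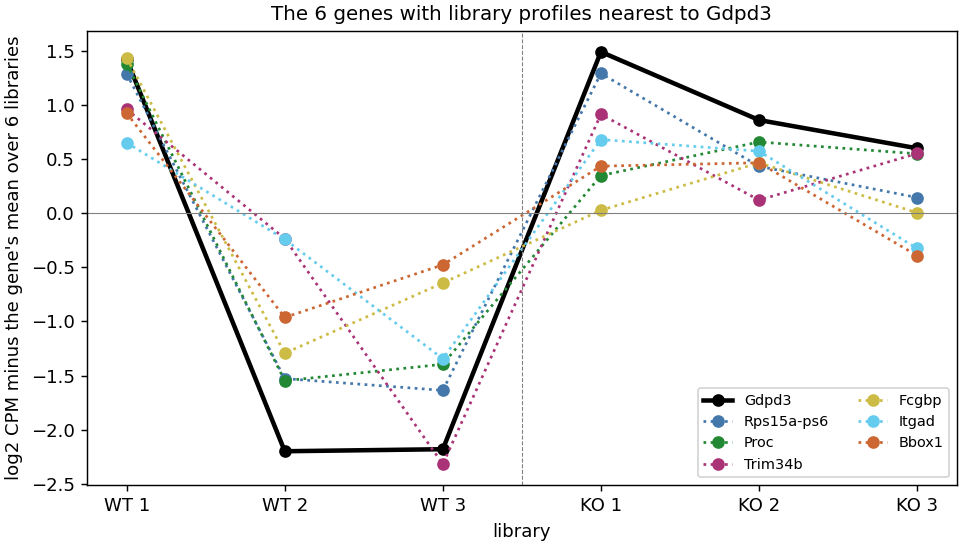
Log2 CPM minus the gene's mean over the 6 libraries (vertical axis) for Gdpd3 (solid black) and the 6 genes with the smallest distance from its profile (dotted), in WT libraries 1 to 3 and KO libraries 1 to 3 (horizontal axis). Lines join the points of 1 gene as a guide to the eye. Rps15a-ps6, at a distance of 0.45, follows Gdpd3 most closely.

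Fcgbp, a mucus protein of goblet cells, was the only one of the 6 with a level like that of Gdpd3: 22.9, 3.28 and 5.26 CPM in WT and 8.49, 11.6 and 8.35 CPM in KO. A list of 10 airway mucus genes, drawn up after this value was seen, summed to 571, 103 and 223 CPM in WT and 231, 408 and 321 CPM in KO. WT libraries 2 and 3 were lowest in this sum too, but KO library 1, the highest for Gdpd3, was close to WT library 3. WT library 2 was the lowest library for every gene of the list except Spdef, which was lowest in KO library 1 (1.48 CPM). How often WT library 2 was lowest over all tested genes was not counted. The order of the other libraries differed between genes. Clca3 was at 204, 2.51 and 23.0 CPM in WT and 66.6, 48.2 and 11.8 CPM in KO, and Muc5b, a gel-forming mucin, at 127, 55.1 and 80.2 CPM in WT and 73.9, 130 and 131 CPM in KO. WT libraries 2 and 3 were lowest for 2 of the 10 genes, Fcgbp and Agr3, against 4.63% of all tested genes. Fcgbp was the gene that had prompted the list. A gap of 2-fold or more held for 0 of the 10, against 0.0203% of all tested genes. The part of airway cells in the Gdpd3 values was not tested.

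The other genes of the Gdpd3 pathway were steadier between libraries. The phosphodiesterase family has 7 genes in the list, of which 6 were tested and Gdpd4 had too few counts. Gde1, which releases N-acylethanolamines from their glycerophospho precursors, was at 147, 133 and 122 CPM in WT and 165, 151 and 146 CPM in KO. WT libraries 2 and 3 were the lowest here as well, though the whole span was 0.44. Its log2 fold change was 0.20 ± 0.11 (SE). Gdpd1, which encodes another lysophospholipase D, was at 30.8 ± 2.24 CPM in WT against 36.5 ± 7.95 CPM in KO (SD, n = 3), with a log2 fold change of 0.25 ± 0.15. Gpcpd1, which hydrolyses glycerophosphocholine, had −0.30 ± 0.14. Of the 5 tested genes other than Gdpd3, 0 passed the test, 4 had a positive and 1 a negative log2 fold change, and the median was 0.06. With 1 library left out, Gdpd1 ranged from 0.12 (without KO library 2) to 0.42 (without KO library 3) and Gpcpd1 from −0.43 (without WT library 2) to −0.16 (without WT library 3).

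A list of 21 genes covered N-acylethanolamines, lysophosphatidic acid and related lipids, with Dagla, Daglb, Mgll and Enpp6 among the genes of the latter. Of these 21 genes, 20 were tested and 0 passed. The log2 fold changes were positive for 10 and negative for 10 (median 0.00). Enpp2, autotaxin, the secreted lysophospholipase D of blood and tissue fluid, was at 86.4, 82.9 and 86.8 CPM in WT and 99.5, 89.9 and 79.2 CPM in KO. WT libraries 2 and 3, poor in Gdpd3, thus had Enpp2 levels like those of the others. Faah, which breaks down N-acylethanolamines, was at 27.8 ± 4.58 CPM in WT against 28.2 ± 2.91 CPM in KO (SD, n = 3). The smallest p-values in the list were those of the receptor Lpar6, with a log2 fold change of −0.41 ± 0.15 (SE), of the phosphatase Ppap2c, with 0.30 ± 0.13, and of the receptor Lpar4, with 0.47 ± 0.25, and all missed the threshold after adjustment. Unadjusted p was under 0.05 for 2 of them, Lpar6 and Ppap2c, and for 0 genes of the phosphodiesterase family and of the lists for the neighbours. The share over all tested genes was 1.88%.

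The partners of the neighbours gave no call either, in lists that each hold the neighbour itself. Of 33 genes of the ERK cascade 32 were tested, with 15 positive and 17 negative log2 fold changes and a median of −0.01. The ERK target Dusp6, a phosphatase that acts back on ERK, was at 115 ± 5.05 CPM in WT against 114 ± 5.19 CPM in KO (SD, n = 3). The smallest p-values were those of the ERK-activated kinase gene Rps6ka3 (−0.22 ± 0.10, SE), the inhibitor Spry2 (0.11 ± 0.10) and the kinase gene Mknk2 (0.13 ± 0.12).

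Of 11 genes of protein phosphatase 4 and its relatives, 10 had a positive and 1 a negative log2 fold change, with a median of 0.06 against 0.00 over all tested genes, and 0 passed. The regulatory subunits Ppp4r1 and Ppp4r2 had 0.04 ± 0.10 and 0.06 ± 0.10 (SE), and Ppp2cb, with the smallest p-value of the list, had 0.16 ± 0.10. In the coronin family (7 genes tested) 2 were positive and 5 negative, with a median of −0.12. Coro1b, a widely expressed coronin, was at 166 ± 2.58 CPM in WT against 170 ± 3.45 CPM in KO (SD, n = 3). Coro7 had the smallest p-value of the family, with a log2 fold change of −0.19 ± 0.13 (SE). In the leukocyte list 14 of 16 genes were negative, with a median of −0.10, and the smallest p-values were those of Ptpn6 (−0.22 ± 0.11, SE), Cd37 (−0.25 ± 0.14) and Ptprc (−0.20 ± 0.14). With 1 library left out, Cd37 ranged from −0.35 (without WT library 3) to −0.08 (without WT library 1) and Ptprc from −0.33 (without WT library 2) to −0.08 (without WT library 3), and the number of negative genes was 9 without KO library 3 and 10 without WT library 1.

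Markers of narrower leukocyte classes were also mostly lower in KO, with 0 past the threshold after adjustment. Of 11 lymphocyte genes 9 were negative (median −0.15, 2 with an unadjusted p under 0.05), but 4 were without WT library 1 (median 0.01). Of 8 neutrophil genes all 8 were negative (median −0.62, 2 with an unadjusted p under 0.05), and 5 without WT library 3 (median −0.14). Over all tested genes, 1.88% had an unadjusted p under 0.05 in edgeR's quasi-likelihood test, a smaller share than in these 2 lists. The neutrophil genes summed to 400.2, 228 and 656 CPM in WT libraries 1 to 3, and to 445, 216 and 187 CPM in KO libraries 1 to 3. Coro1a, like the neutrophil sum, was lowest in WT library 2, KO library 2 and KO library 3.

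Of 5 yippee-like genes 4 were tested, 1 positive and 3 negative, with Ypel2 at −0.09 ± 0.13 and Ypel5 at 0.02 ± 0.12 (SE). Of 17 T-box genes 11 were tested, 3 positive and 8 negative, and Eomes had the smallest p-value (−0.36 ± 0.22, SE). The T-box genes of the lung mesenchyme were abundant, with Tbx2 at 372 ± 55.8 CPM in WT and 352 ± 75.2 CPM in KO and Tbx4 at 90.9 ± 10.8 and 92.0 ± 10.8 CPM (SD, n = 3). Tbx6 stood far below these, at 2.74 ± 1.87 and 2.66 ± 0.547 CPM. Of 8 genes that work with Tbx6 in the presomitic mesoderm, 4 were tested and 2 had 0 counts in every library.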

How the data were processed

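RNA-seq reads from lung (50 bp, paired-end) were aligned to mm10, and TopHat is named in the submitters' processing notes. The authors deposited raw counts per transcript, not normalized. No source used here names the counting tool, its annotation, its strand setting or how it treated shared reads. The RefSeq transcript with the highest total stood for a gene, and 33353 FANTOM3 cDNA clones were left out except in an alternative. Gene names turned into dates (49 entries) were restored by accession in 48.

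KO was compared with WT (3 libraries each) by edgeR's quasi-likelihood test (R 4.3.3, edgeR 4.0.16) after filterByExpr (minimum count 10, minimum total 15), which removed 8671 genes, and TMM scaling, with Benjamini-Hochberg adjustment over 14802 genes and a threshold of 0.05. The biological coefficient of variation was 0.129. The code was tested on simulated data. Profiles used log2 CPM with a prior count of 2. Named genes were the 6 genes, up to 3 of each list by smallest p, up to 5 tested genes on each side of Gdpd3, and the 6 nearest profiles. Other genes, such as Enpp2, Tbx2, Clca3, Atp2a1 and Mylpf, were chosen after their values were seen. The members and lists were chosen with earlier results of these data known. One or more items are not reported here. Promoters came from RefSeq (GRCm38.p6) and matched 5 of the 6 genes. Alternatives were RLE or no composition scaling, DESeq2 1.42.0, limma-voom (limma 3.58.1), other filters, each library left out, a replicate block, summed transcripts, each entry by itself, and Rn45s left out. Where nothing says that pools came from separate litters, p-values measure only the spread between these libraries.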

Additional observations from a re-analysis of the deposited data

How the results depend on the processing

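The number of genes called was 1 under every alternative except without WT library 1, where it was 2. The added gene was Gdpd3, and since it was chosen for its library pattern this carries no weight as a test. Thus leaving out 1 library gave 1 to 2. Among the genes within 500 kb of Gdpd3 and in the lists, Gdpd3 apart, the number called was 0 in all of them by edgeR, DESeq2 and limma-voom. The log2 fold change of Gdpd3 was 0.46 to 3.30 with 1 library left out and 0.95 to 1.95 otherwise, the highest being limma-voom. With 1 library left out, Mapk3 was at 0.05 to 0.13, Ypel3 at −0.27 to 0.00028, Tbx6 at −0.46 to 0.51, Ppp4c at 0.05 to 0.12 and Coro1a at −0.23 to −0.04.

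Signs reversed for 6 genes with small changes. Tbx6 reached 0.11 in limma-voom, 0.51 without WT library 2, 0.07 without KO library 2 and 0.019 with the replicate block, and Ypel3 0.00028 without KO library 2. Ypel1 reached 0.035 without KO library 1 (range with 1 library left out −0.17 to 0.035), Ypel5 −0.043 without WT library 2 and −0.088 without KO library 1 (−0.088 to 0.092), Coro2b 0.011 without WT library 2 (−0.24 to 0.011), and Coro6 0.0073 without WT library 2 and 0.052 without KO library 1 (−0.38 to 0.052). In these the cause was not tested. Mylpf, outside the set followed here, turned from −2.26 to 0.36 without WT library 2. With at least 10 counts required in every library, Tbx6 gave no value. Spans of the 6 genes and distances from Gdpd3 stayed within the spread between libraries under another prior count, RLE scaling and summed transcripts.

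Between WT and KO libraries of the same replicate number, deviations from the group means correlated at 0.13, −0.23 and −0.27 for numbers 1, 2 and 3. The highest correlation of a WT with a KO library was 0.39, for WT library 2 and KO library 3. With 3 libraries per group, these values cannot show whether libraries of the same number shared litters or a batch. The fit with a replicate block called 1 gene and put Gdpd3 at 1.73 on the log2 scale. At 8 to 54 counts per library, the depth limits what can be said of Tbx6.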

Other observations

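The search for profiles like that of Gdpd3 was repeated over all deposited entries, FANTOM3 clones included, a choice made after seeing the data. Rps15a-ps6 was again the nearest (distance 0.45), followed by 3 entries of Proc with equal counts and 1 of Trim34b, and the first FANTOM3 clone, B020006D06, came at rank 6 (distance 0.97) at 16, 5 and 2 counts in WT against 15, 12 and 6 in KO. The clones were not placed on the genome, so it was not tested whether any of them overlaps Gdpd3.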
